A study of Arabidopsis thaliana with 12 samples.

Results

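The light harvesting and photosystem genes comprised 67 of the 33323 rows of the deposited expression table. They were the rows whose description named a photosystem, light harvesting or a chlorophyll a/b-binding protein. All 67 were nuclear genes, and the table used here held 0 plastid rows, so the plastid-encoded reaction centre subunits were not analysed here. Of the 67, 65 reached 0.5 FPKM in at least 3 libraries and were tested. FPKM, the unit of all levels given here, scales the fragments of a transcript by its length and by the mapped fragments of the library. The 2 untested genes were AT5G28450, a relative of the antenna proteins listed at 0 to 0.44 FPKM, and AT4G37230, an oxygen-evolving family gene listed at 0 in all 12 libraries.

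RNA was sequenced from whole rosettes of Arabidopsis thaliana grown in short days to 35 days after germination, with 3 individual plants of each genotype, 1 plant per library. The labels give the tissue as leaf. The 2 overexpressing lines, 35S:KLU2 and 35S:KLU1, carried the KLU coding sequence fused to GFP under the constitutive cauliflower mosaic virus 35S promoter in the Col-0 background. The klu plants carried a T-DNA insertion in KLU, which encodes a cytochrome P450 known for prolonging leaf growth, and Col-0 was the wild type. As a check of the labels, the KLU transcript reached 1729 to 2890 FPKM in the 35S:KLU libraries, whereas klu plants had at most 0.22 FPKM and Col-0 plants at least 5.42 FPKM.

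Light energy in plant thylakoids is collected by chlorophyll-binding antenna proteins and passed to photosystem II, which oxidises water, and to photosystem I, which reduces ferredoxin. The LHCB proteins form the antenna of photosystem II, with LHCB1 and LHCB2 as the main components of its mobile trimers, and the LHCA proteins form the antenna belt of photosystem I. The antenna and many small subunits are encoded in the nucleus and imported into the chloroplast, whereas the reaction centre cores are encoded in the plastid, and assembly factors join both sets.

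The libraries had summed values between 1110149 and 1194277 FPKM. The table holds no counts, so the sequencing depth is unknown. One klu plant, klu replicate 1, stood apart: it had 18684 genes at 0.5 FPKM or more, against 19053 to 19230 in the other libraries. It was also the highest of all 12 libraries for 56 of the 65 tested members. Counts of members and of the pathway and marker lists that moved when it was left out are therefore also given without it.

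The members were among the most abundant transcripts of these rosettes. They filled 13 of the 20 highest rows and 40 of the 100 highest, and 41 of the 65 averaged at least 1000 FPKM. LHCB1.3, an LHCB1 copy, was the highest, at 24505, 26608 and 27343 FPKM (lowest, median and highest) in the 6 35S:KLU libraries, 35596, 30507 and 31238 FPKM in klu, and 31744, 30799 and 32525 FPKM in Col-0. The next in order of mean level were LHCB1.5, LHCB1.2, LHCB5 and PSBR, a photosystem II subunit. At the other end, LHCB7, a rarely expressed antenna gene, stood at 7.43 to 10.99 FPKM over all libraries, and ELIP2, an early light-induced protein, at 0.23 to 2.60 FPKM. Together the members made up 16.5%, 16.7% and 15.6% of all FPKM in 35S:KLU2 and 16.3%, 17.6% and 17.2% in 35S:KLU1. The same share was 23.1%, 18.8% and 18.7% in klu and 20.1%, 19.2% and 19.8% in Col-0. Every 35S:KLU library lay below every klu and every Col-0 library.

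**Figure D1:**
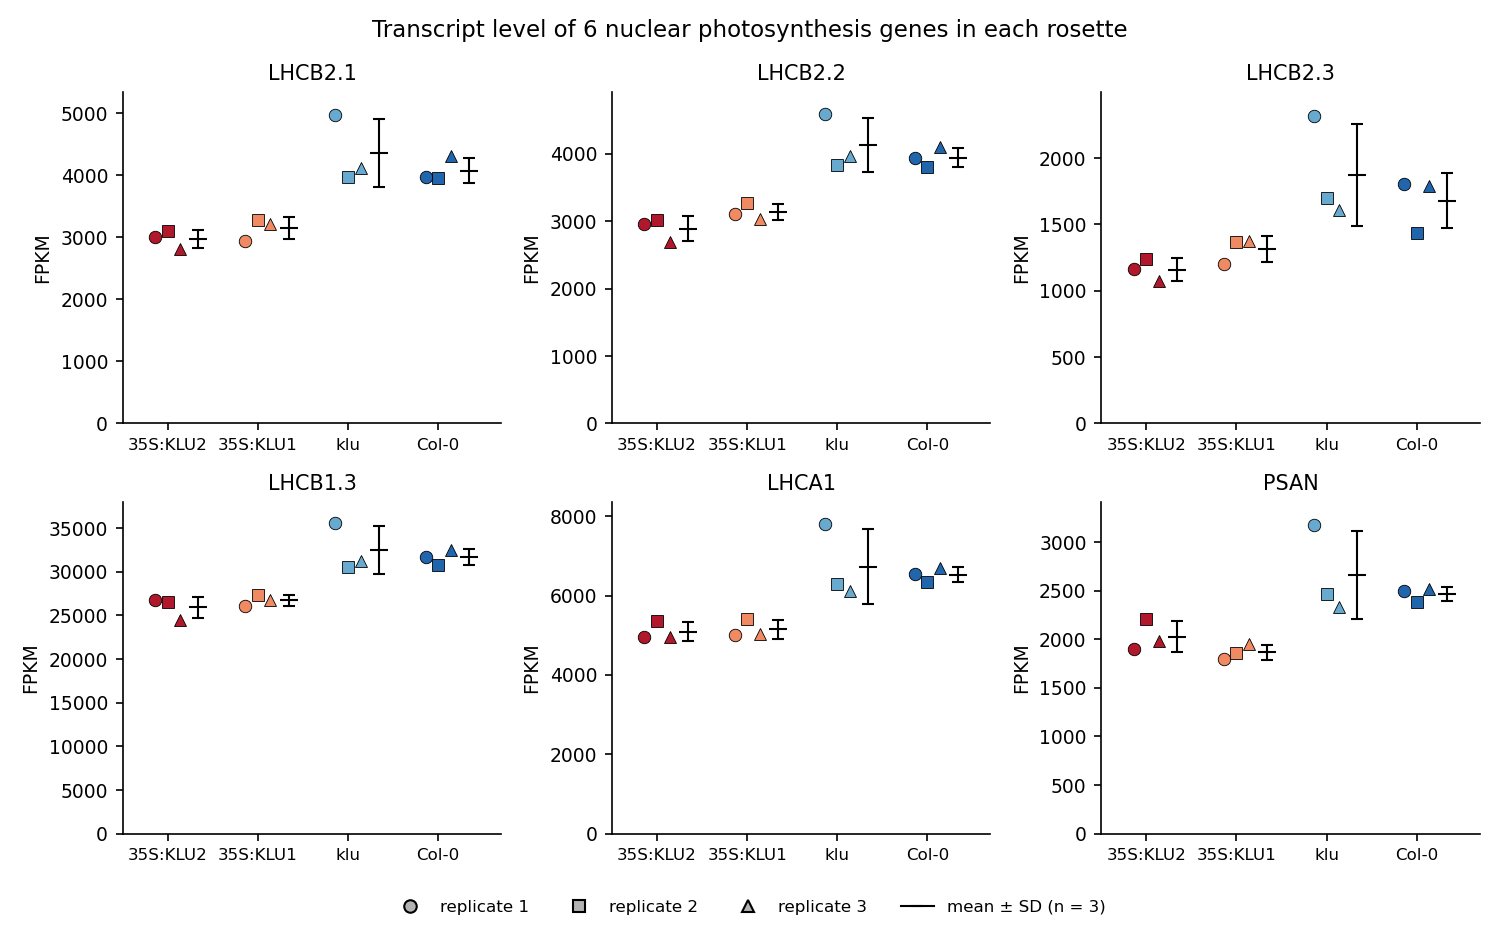
FPKM (vertical axes) of LHCB2.1, LHCB2.2, LHCB2.3, LHCB1.3, LHCA1 and PSAN in each plant (points, by genotype), with the mean and SD of 3 plants as bars. The 35S:KLU libraries of LHCB2.1 lie between 2811 and 3279 FPKM, below all klu and Col-0 libraries.

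In 35S:KLU rosettes some of the antenna and photosystem genes were lower than in Col-0, most of them were not called, and none was higher past the threshold. In the comparison of both lines with Col-0, 16 of the 65 tested members were called lower (24.6%) and 0 higher at an adjusted p under 0.05 (limma). Over all 19660 genes tested, 8.18% were called lower and 11.4% higher. The median log2 fold change of the members was -0.20, a level 12.9% lower, against 0.03 over all genes. Below 0 lay 61 of the 65, against 44.3% of all genes. The 35S:KLU and Col-0 libraries did not overlap, with 35S:KLU lower, for 37 members, against 11.8% of all genes. At an unadjusted p under 0.05, 35 members were lower and 1 higher, and 33.3% of all genes passed in either direction. Of the members at 1000 FPKM or more, 12 of 41 were called lower (29.3%), with a median of -0.22, whereas of the 80 other genes at that level 10 were lower (12.5%) and 22 higher, with a median of 0.02.

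The count depended strongly on the scaling and on which plants entered. Under median-of-ratios scaling it was 6 of 65, where 10.4% of all genes were called lower, with a median of the members of -0.23. It was 36 of 65 without klu replicate 1, where 12.1% of all genes were called lower. The median of the members stayed at -0.20 in that fit. A klu plant does not enter the difference from Col-0, but the spread shared by the 4 genotypes and the filter on low values. Without Col-0 replicates 1, 2 and 3 it was 4, 4 and 2 of 65, where 5.6%, 4.75% and 4.66% of all genes were called lower, so that the share of members called was then near or below that of all genes. The median of the members in these 3 fits was -0.21, -0.21 and -0.15. The count was 5 and 9 of 65 without 35S:KLU1 replicates 1 and 3 (6.48% and 6.52% of all genes), and 7 and 4 without 35S:KLU2 replicates 1 and 3 (6.28% of all genes in each).

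Against klu, 31 of 65 members were called lower in 35S:KLU (47.7%) and 0 higher, where 10.7% of all genes were lower and 15.9% higher. The median was -0.24, a level 15.5% lower, against 0.04 over all genes, and 62 members lay below 0, against 43.1% of all genes. For 35 members all 35S:KLU libraries were below all klu libraries, against 9.79% of all genes. At an unadjusted p under 0.05, 41 members were lower and 0 higher, where 38.3% of all genes passed in either direction. Among members at 1000 FPKM or more 19 of 41 were lower (46.3%), against 15 of the 80 other genes at that level (18.8%). Both comparisons share the 35S:KLU libraries, so their values are given side by side and are not independent. Without klu replicate 1 the count against klu was 16, with a median of -0.15, and 13.3% of all genes were then called lower. It was 20 without 35S:KLU1 replicate 1, 35S:KLU1 replicate 3, 35S:KLU2 replicate 1 or 35S:KLU2 replicate 3, each left out alone, where 8.96% to 9.23% of all genes were called lower.

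**Figure D2:**
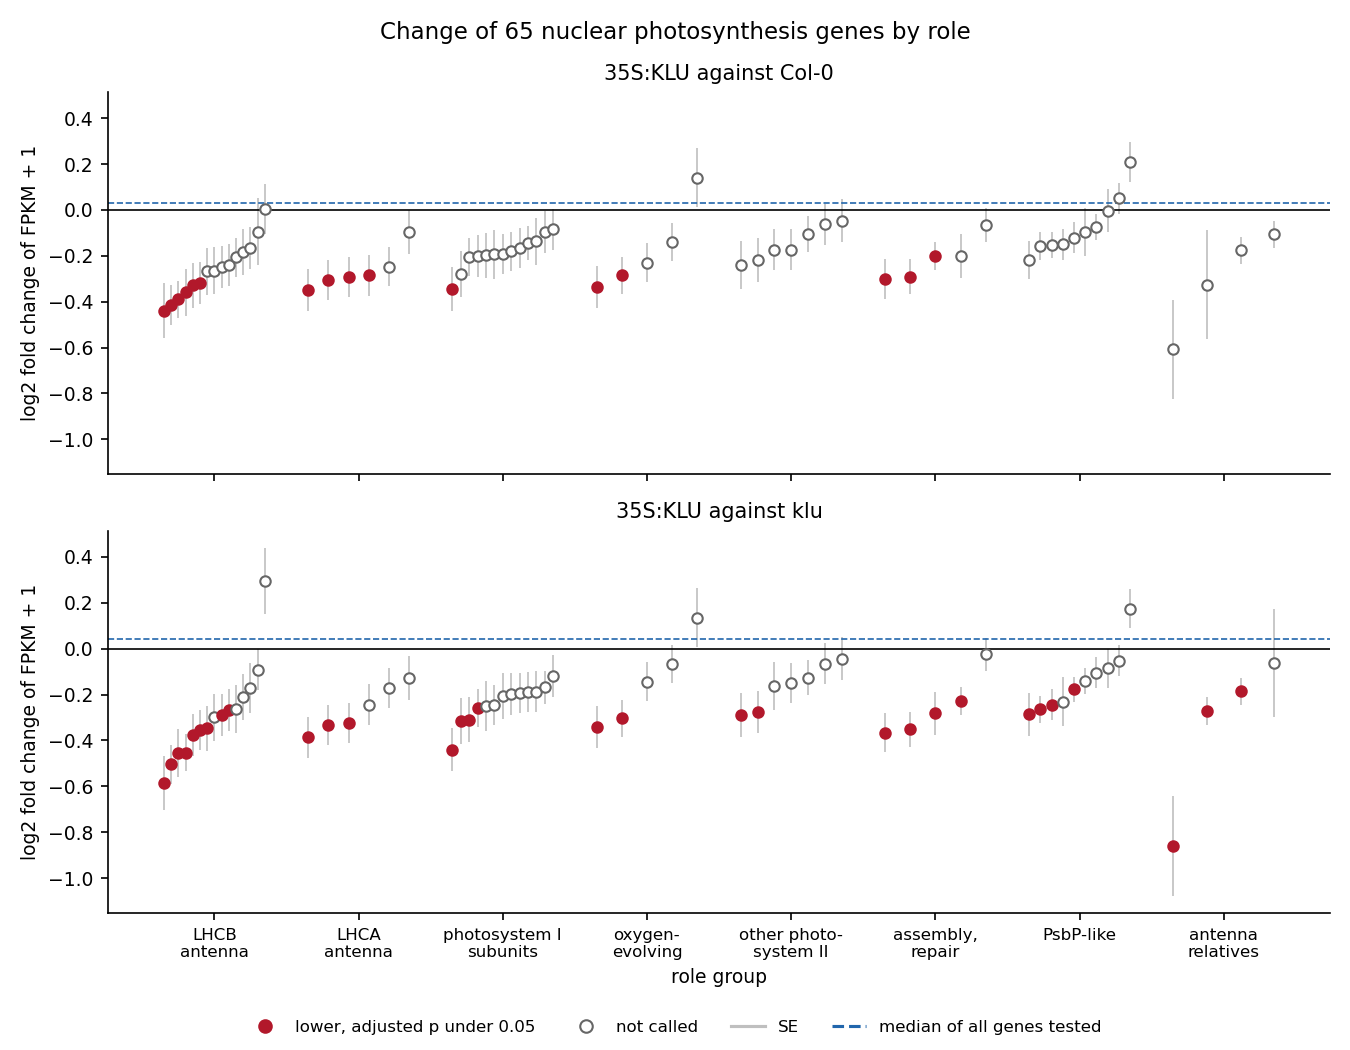
Log2 fold change of FPKM + 1 (vertical axes) with its SE for each tested member by role group, 35S:KLU against Col-0 (top) and against klu (bottom), with filled points called lower and a dashed line at the median of all genes tested. In the LHCB antenna 6 of 15 members were lower against Col-0 and 9 of 15 against klu, where 8.18% and 10.7% of all genes were.

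The LHCB antenna held 15 tested genes. Against Col-0, 6 were lower (40%), with a median log2 fold change of -0.27, and against klu 9 were lower (60%), with a median of -0.30. Over all genes tested, 8.18% were lower against Col-0 and 10.7% against klu, which applies to every role group below. Against Col-0 the changes were largest in the LHCB2 genes, and against klu LHCB1.4 ranked beside LHCB2.2. LHCB2 proteins make up the mobile trimers with LHCB1. The regions of the LHCB2 genes upstream of the annotated gene start (TAIR10.1, 250 bases, 5′ to 3′) are shown because these 3 genes had the largest changes against Col-0 in the antenna group, with that of LHCA1, the member of the photosystem I antenna with the largest change. Capitals mark the I-box core GATAAG or its reverse complement CTTATC and the G-box CACGTG. The windows are chr2:1824481-1824730 on the minus strand for LHCB2.1, chr2:1800473-1800722 on the minus strand for LHCB2.2, chr3:10255656-10255905 on the plus strand for LHCB2.3 and chr3:20341177-20341426 on the minus strand for LHCA1.
LHCB2.1: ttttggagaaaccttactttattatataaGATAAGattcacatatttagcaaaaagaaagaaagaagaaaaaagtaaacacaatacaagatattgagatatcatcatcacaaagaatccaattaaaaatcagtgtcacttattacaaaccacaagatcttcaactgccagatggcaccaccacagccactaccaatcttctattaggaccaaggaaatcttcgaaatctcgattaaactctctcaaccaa
LHCB2.2: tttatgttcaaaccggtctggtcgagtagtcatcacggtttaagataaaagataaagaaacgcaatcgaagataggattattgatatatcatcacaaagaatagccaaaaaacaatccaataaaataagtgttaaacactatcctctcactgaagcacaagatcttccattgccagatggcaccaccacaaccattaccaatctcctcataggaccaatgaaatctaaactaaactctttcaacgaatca
LHCB2.3: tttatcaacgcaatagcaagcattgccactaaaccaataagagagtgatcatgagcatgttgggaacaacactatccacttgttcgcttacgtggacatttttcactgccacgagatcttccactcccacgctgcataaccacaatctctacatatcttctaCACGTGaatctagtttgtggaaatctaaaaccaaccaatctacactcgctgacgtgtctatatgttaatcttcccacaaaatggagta
LHCA1: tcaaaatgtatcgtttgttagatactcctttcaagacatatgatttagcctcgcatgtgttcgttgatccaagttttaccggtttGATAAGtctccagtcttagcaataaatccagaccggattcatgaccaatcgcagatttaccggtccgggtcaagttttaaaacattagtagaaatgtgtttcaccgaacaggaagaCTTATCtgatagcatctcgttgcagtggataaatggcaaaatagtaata
Over their aligned bases the upstream regions of LHCB2.1 and LHCB2.2 were 78.2% identical, those of LHCB2.1 and LHCB2.3 were identical at 130 of 200 bases, and those of LHCB2.2 and LHCB2.3 were 67.5% identical.

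The motifs were searched on both strands in windows of 300 bases, from 250 before to 50 after the gene start. The G-box CACGTG was in 22 of 66 member windows (33.3%) and in 7.68% of 27443 windows of protein-coding genes. The I-box GATAAG was in 26 of 66 (39.4%) and in 14.6% of all windows. The evening element AAAATATCT was in 1 (1.52%, against 2.82%) and the CCA1 site AAAAATCT in 8 (12.1%, against 7.88%). Among the 16 members lower than Col-0, 7 held a G-box (43.8%) and 7 an I-box (43.8%), against 30.0% and 38.0% of the members that were not lower. Such a match is a run of letters, and binding was not measured.

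LHCB2.1 (AT2G05100) was at 2811, 3057 and 3279 FPKM (lowest, median and highest) in 35S:KLU, 4980, 3979 and 4117 FPKM in klu, and 3967, 3954 and 4305 FPKM in Col-0. All 35S:KLU libraries lay below all others. The log2 fold change was -0.41 against Col-0 (SE 0.09, adjusted p = 0.00677) and -0.50 against klu (adjusted p = 0.00146). LHCB2.2 (AT2G05070) stood at 2686, 3028 and 3268 FPKM in 35S:KLU, 4589, 3838 and 3970 FPKM in klu, and 3932, 3806 and 4100 FPKM in Col-0, again with no overlap. Its log2 fold change was -0.39 against Col-0 (SE 0.08, adjusted p = 0.00567) and -0.45 against klu (adjusted p = 0.00162). LHCB2.3 (AT3G27690), the least abundant of the 3, was at 1070, 1220 and 1375 FPKM in 35S:KLU, 2317, 1699 and 1607 FPKM in klu, and 1807, 1439 and 1791 FPKM in Col-0. The groups did not overlap, and the log2 fold change was -0.44 against Col-0 (SE 0.12, adjusted p = 0.0234) and -0.59 against klu (adjusted p = 0.00396). Without klu replicate 1 the 3 genes stayed lower than klu, at -0.41 for LHCB2.1, -0.38 for LHCB2.2 and -0.42 for LHCB2.3. LHCB2.1 and LHCB2.2 were the only members called lower than Col-0 in all 20 alternative treatments of the data.

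Copies within these families are similar: the coding sequences of LHCB1 genes were 87.4% to 96.4% identical over 10 pairs, and those of LHCB2 genes 84.7% to 96.6% over 3 pairs. Reads may be hard to assign to single copies, which was not measured, so sums over each family are also given. LHCB2 transcripts summed to 6567, 7310 and 7914 FPKM (lowest, median and highest) in 35S:KLU, 11885, 9515 and 9694 FPKM in klu, and 9706, 9198 and 10196 FPKM in Col-0. The sums did not overlap. LHCB1 transcripts summed to 56215, 61360 and 64443 FPKM in 35S:KLU, 84632, 70225 and 70681 FPKM in klu, and 72307, 71010 and 74953 FPKM in Col-0, also without overlap.

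Of the LHCB1 genes, only LHCB1.4 (AT2G34430) was lower than Col-0 past the threshold. It was at 4524, 5318 and 5710 FPKM in 35S:KLU, 8680, 6620 and 6377 FPKM in klu, and 6737, 6304 and 7096 FPKM in Col-0, with no overlap (log2 fold change -0.36, SE 0.10, adjusted p = 0.0313 against Col-0, and -0.45, adjusted p = 0.00778 against klu). LHCB1.3 had a log2 fold change of -0.27 against Col-0 (adjusted p = 0.0907) and -0.30 against klu (adjusted p = 0.0508), LHCB1.5 one of -0.27 (adjusted p = 0.0913) and -0.26 (adjusted p = 0.0782), and LHCB1.2 one of -0.18 (adjusted p = 0.229) and -0.21 (adjusted p = 0.148). LHCB1.1 was lower than klu, at -0.35 (adjusted p = 0.0108), and at -0.21 against Col-0 (adjusted p = 0.116). LHCB3, which takes part in the LHCII trimers, was lower in both comparisons, at -0.32 against Col-0 (adjusted p = 0.0315) and -0.38 against klu (adjusted p = 0.0107). So was LHCB6, a minor antenna protein that connects trimers to the core, at -0.33 (adjusted p = 0.0355) and -0.35 (adjusted p = 0.0216). The minor antenna genes LHCB5 and LHCB4.2 were lower than klu, at -0.29 (adjusted p = 0.0342) and -0.27 (adjusted p = 0.0474), and had adjusted p = 0.0739 and 0.0865 against Col-0. LHCB4.1, LHCB4.3 and LHCB7 were called in neither comparison. LHCB4.3 was the member furthest above 0 against klu, at 0.29 (adjusted p = 0.157), and was called higher there only without klu replicate 3, at 0.49 (adjusted p = 0.0157).

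In the photosystem I antenna 4 of 6 genes were lower than Col-0 (66.7%, against 8.18% of all genes), with a median of -0.29. Against klu 3 of 6 were lower (50%, against 10.7% of all genes), with a median of -0.28. LHCA1 (AT3G54890) was at 4950, 5016 and 5423 FPKM in 35S:KLU, 7808, 6287 and 6105 FPKM in klu, and 6546, 6338 and 6700 FPKM in Col-0. No 35S:KLU library reached a klu or Col-0 library, and the log2 fold change was -0.35 against Col-0 (SE 0.09, adjusted p = 0.0194) and -0.39 against klu (adjusted p = 0.00883). LHCA4, which pairs with LHCA1 in the antenna belt, was at -0.29 against Col-0 (adjusted p = 0.0361) and -0.33 against klu (adjusted p = 0.0153). Lhca5, a minor antenna protein that takes part in linking photosystem I to the NDH complex, was at -0.31 (adjusted p = 0.0308) and -0.32 (adjusted p = 0.0181). LHCA3 was at -0.29 against Col-0 (adjusted p = 0.0407) and -0.24 against klu (adjusted p = 0.0599), whereas LHCA2 (-0.25, adjusted p = 0.0669 against Col-0) and Lhca6 (-0.10, adjusted p = 0.519) were not called in either.

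Of 13 photosystem I subunits tested, 1 was lower than Col-0 and 4 lower than klu, with medians of -0.19 and -0.21. The share lower than Col-0, 7.69%, was near the 8.18% of all genes. The share lower than klu was 30.8%, against 10.7% of all genes. PSAN (AT5G64040), a lumenal subunit near the plastocyanin docking site, was the gene called in both: it stood at 1793, 1925 and 2205 FPKM in 35S:KLU, 3179, 2467 and 2337 FPKM in klu, and 2497, 2387 and 2520 FPKM in Col-0. These values did not overlap, at -0.34 against Col-0 (SE 0.10, adjusted p = 0.0258) and -0.44 against klu (adjusted p = 0.00567). PSAF, which docks plastocyanin, and PSAH-1 and PSAH-2, which bind mobile antenna during state transitions, were lower than klu, at -0.32, -0.26 and -0.31 (adjusted p = 0.0368, 0.0395 and 0.0333). The other 9 photosystem I genes were called in neither comparison. They were PSAD-1, PSAD-2 and PSAE-1, PSAE-2 of the ferredoxin side, PSAG and PSAK at the antenna side, PSAL, PSAO and PSAP. PSAP is also listed under the name CURT1B and was grouped here by its description. The log2 fold changes of these 9 genes against Col-0 all lay below 0.

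Among the oxygen-evolving proteins, which shield the manganese cluster of photosystem II, 2 of 5 were lower in each comparison (40%). Over all genes 8.18% were lower against Col-0 and 10.7% against klu. PSBQ-1 was at 2031, 2178 and 2306 FPKM in 35S:KLU, 3244, 2568 and 2450 FPKM in klu, and 2674, 2630 and 2861 FPKM in Col-0, with no overlap (-0.34, adjusted p = 0.0233 against Col-0, and -0.34, adjusted p = 0.0161 against klu). PSBQ-2 was at -0.28 (adjusted p = 0.0293) and -0.30 (adjusted p = 0.0167). PSBP-1 was at -0.23 against Col-0 (adjusted p = 0.0792), and PSBO-2 and PSBP-2 were not called. Of 7 other photosystem II subunits, 0 were lower than Col-0 and 2 lower than klu (28.6%, against 10.7% of all genes). The 2 were PSBW, at -0.28 (adjusted p = 0.0409), and PSBY, at -0.29 (adjusted p = 0.0434). PSBR, PSBS, which triggers energy dissipation in strong light, PSBTN, PSBX and AT1G51400 were called in neither.

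Assembly and repair factors were lower for 3 of 5 genes against Col-0 (60%) and 4 of 5 against klu (80%), against 8.18% and 10.7% of all genes. Their levels were far below those of the most abundant antenna genes. HCF136, needed to assemble the photosystem II core, was at 179, 212 and 225 FPKM in 35S:KLU, 312, 254 and 242 FPKM in klu, and 257, 244 and 267 FPKM in Col-0, without overlap (-0.30, adjusted p = 0.0289 against Col-0, and -0.37, adjusted p = 0.00856 against klu). LPA19, which assists maturation of the D1 protein, was at 34.1, 38.8 and 43.3 FPKM in 35S:KLU, 54.9, 47.6 and 46.7 FPKM in klu, and 46.2, 46.2 and 50.2 FPKM in Col-0 (-0.29, adjusted p = 0.021, and -0.35, adjusted p = 0.00594). Its 35S:KLU libraries also lay below all others. THF1, involved in thylakoid formation, was at -0.20 (adjusted p = 0.0357) and -0.23 (adjusted p = 0.0155). PSB28 was lower than klu, at -0.28 (adjusted p = 0.0467), and PSB27 was not called.

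The relatives of the antenna proteins gave 0 of 4 lower than Col-0 and 3 of 4 lower than klu (75%, against 10.7% of all genes). ELIP2 was listed at 0.23, 0.54 and 1.37 FPKM in 35S:KLU, 2.60, 1.47 and 2.01 FPKM in klu, and 0.89, 1.88 and 1.91 FPKM in Col-0, and overlapped only with Col-0 (-0.86, adjusted p = 0.0122 against klu, and -0.61, adjusted p = 0.0682 against Col-0). Its values lie near the filter. LIL3:1 and LIL3:2, which anchor chlorophyll synthesis enzymes to the membrane, were lower than klu, at -0.19 (adjusted p = 0.0377) and -0.27 (adjusted p = 0.00617), and ELIP1 was not called. The PsbP-like proteins gave 0 of 10 lower than Col-0 and 4 of 10 lower than klu (40%, against 10.7% of all genes). The 4 were PPD1, needed to assemble photosystem I (-0.27, adjusted p = 0.00677), AT1G76450 (-0.24, adjusted p = 0.018), PPD5 (-0.18, adjusted p = 0.0355) and AT5G27390 (-0.29, adjusted p = 0.0425). AT3G63540 lay above 0, at 0.21 against Col-0 (adjusted p = 0.11) and 0.17 against klu. Without klu replicate 1 it was called higher than Col-0 (adjusted p = 0.0407) and klu (0.27, adjusted p = 0.0286). With library weights it was also higher than both (adjusted p = 0.0419 and 0.0393), and with only the groups compared higher than Col-0 (adjusted p = 0.0495).

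Without klu replicate 1, 12.1% of all genes were called lower than Col-0. The counts of members in that fit were 11 for LHCB, 5 for LHCA, 7 for photosystem I subunits and 4 for oxygen-evolving proteins. They were 3 for other photosystem II subunits, 4 for assembly and repair, 1 for PsbP-like proteins (10%) and 1 for antenna relatives. Against klu, with the same library left out, 13.3% of all genes were called lower. The counts were then 6 for LHCB, 2 for LHCA, 1 for photosystem I subunits (7.69%) and 2 for oxygen-evolving proteins. They were 0 for other photosystem II subunits, 3 for assembly and repair, 1 for PsbP-like proteins (10%) and 1 for antenna relatives.

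The 2 lines gave similar counts. Against Col-0, 7 members were lower in 35S:KLU2 (5.27% of all genes) and 7 in 35S:KLU1 (6.07% of all genes). Against klu, 16 were lower in 35S:KLU2 (7.11% of all genes) and 20 in 35S:KLU1 (9.2% of all genes). Between 35S:KLU2 and 35S:KLU1, 0 of 65 members were called by limma (0.0102% of all genes), and at an unadjusted p under 0.05 2 were higher in 35S:KLU2, PSB28 and LIL3:2, and 0 lower (5.66% of all genes in either direction). The median was 0.03, with 25 of 65 below 0, against 0.06 and 25.8% over all genes, and its sign turned under median-of-ratios, upper-quartile and equal-sum scaling. In klu against Col-0, 0 members were called by limma (0.061% of all genes). At an unadjusted p under 0.05, 1 was higher, AT5G27390, and 1 lower, LHCB4.3, where 6.01% of all genes passed in either direction. The median was 0.04, with 16 of 65 below 0 (54.2% of all genes), and -0.05 with 52 below 0 without klu replicate 1. The SE of these differences ran from 0.07 to 0.27 on the log2 scale.

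Ratios within a library do not depend on how the libraries are scaled. LHCB2 FPKM per 100 FPKM of LHCB1 was 11.6, 12.03 and 11.7 in 35S:KLU2 and 12.1, 12.3 and 12.2 in 35S:KLU1, against 14.04, 13.6 and 13.7 in klu and 13.4, 12.95 and 13.6 in Col-0. All 6 values of 35S:KLU lay below the other 6. LHCA per 100 photosystem I subunits was 49.96, 49.2 and 49.6 in 35S:KLU2 and 51.6, 50.97 and 50.4 in 35S:KLU1, against 51.9, 51.9 and 52.98 in klu and 53.6, 56.5 and 53.03 in Col-0, again with all values of 35S:KLU below the others. LHCB per 100 photosystem II subunits, the oxygen-evolving proteins included, was 261, 256 and 256 in 35S:KLU2 and 278, 280 and 276 in 35S:KLU1, against 289, 295 and 298 in klu and 289, 278 and 283 in Col-0. Here the lines did not overlap each other, and 35S:KLU1 overlapped Col-0. These ratios are descriptions, without a test.

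**Figure D3:**
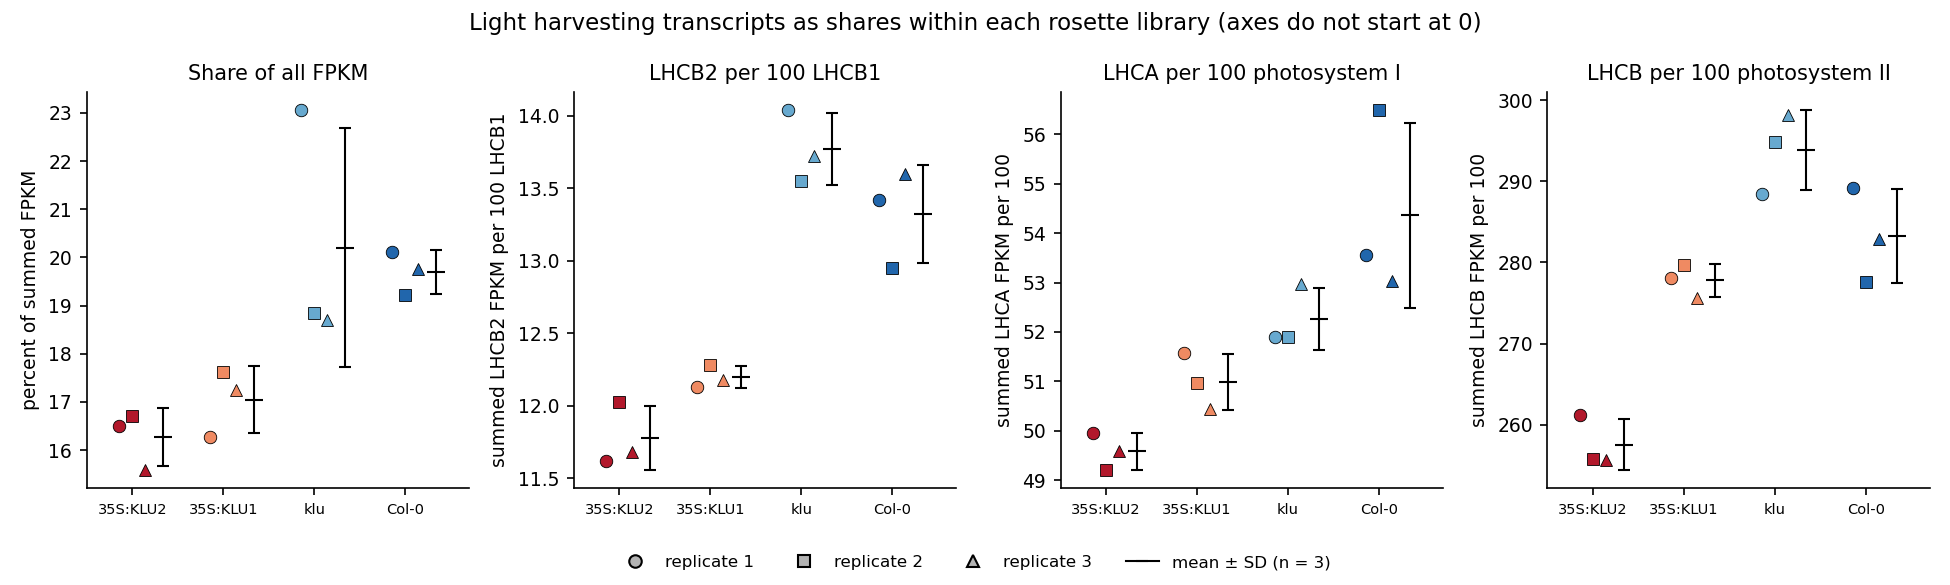
Share of all FPKM held by the members (percent) and summed FPKM of a family per 100 FPKM of another, in each plant (points) by genotype with the mean and SD of 3 plants, on axes that do not start at 0. LHCB2 per 100 LHCB1 lies between 11.6 and 12.3 in 35S:KLU and between 12.95 and 14.04 in klu and Col-0.

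Genes for chlorophyll synthesis were also lower: 14 of 24 lower than Col-0 (58.3%) and 17 of 24 lower than klu (70.8%), with 0 higher and medians of -0.22 and -0.26. Over all genes 8.18% were lower than Col-0 and 10.7% lower than klu. Without klu replicate 1 the counts were 17 and 14, where 12.1% and 13.3% of all genes were lower. PORA, a light-dependent protochlorophyllide reductase, had 43.4, 39.05 and 31.3 FPKM in 35S:KLU2, 45.6, 37.4 and 38.2 FPKM in 35S:KLU1, 56.9, 62.0 and 75.2 FPKM in klu, and 80.9, 68.7 and 74.5 FPKM in Col-0 and did not overlap (-0.92, SE 0.11, adjusted p = 0.000465 against Col-0, and -0.71, adjusted p = 0.000997 against klu). PORB, another such reductase, was far more abundant, at 1622, 1752 and 1555 FPKM in 35S:KLU2 and 1596, 1598 and 1574 FPKM in 35S:KLU1. It overlapped klu, at 1714, 1498 and 1456 FPKM, and Col-0, at 1680, 1529 and 1628 FPKM. PORC, at 189 to 204 FPKM in 35S:KLU, lay below all klu and Col-0 libraries. GUN5, a magnesium chelatase subunit, was at -0.51 (adjusted p = 0.000867) and -0.46 (adjusted p = 0.000809). Its activator GUN4 was at -0.40 (adjusted p = 0.00183) and -0.54 (adjusted p = 0.000184). CHLP, which makes the phytyl tail, was at -0.43 (adjusted p = 0.00153) and -0.41 (adjusted p = 0.00129). HEMA1, at the entry of the pathway, was at -0.38 (adjusted p = 0.0233) and -0.54 (adjusted p = 0.00252), and CAO, which makes chlorophyll b, at -0.33 (adjusted p = 0.00391) and -0.46 (adjusted p = 0.000347).

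**Figure D4:**
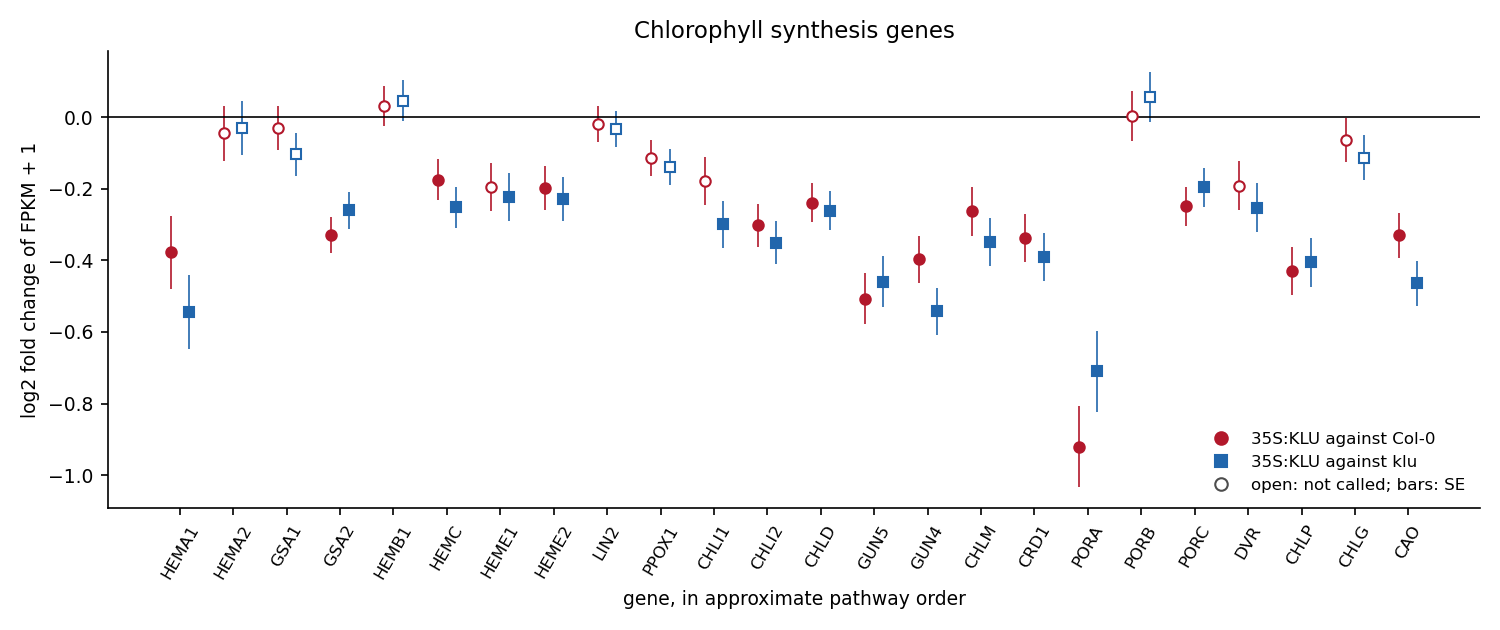
Log2 fold change of FPKM + 1 (vertical axis) with its SE for 24 chlorophyll synthesis genes, 35S:KLU against Col-0 (circles) and against klu (squares), with open points not called. PORA was lowest, at -0.92 against Col-0 and -0.71 against klu.

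Chlorophyll breakdown gave 0 of 8 lower than Col-0 and 1 of 8 lower than klu (12.5%), NOL (-0.23, adjusted p = 0.0103). Over all genes 8.18% were lower and 11.4% higher than Col-0, and 10.7% lower and 15.9% higher than klu. These shares apply to the lists that follow as well. Among 5 genes for antenna protein targeting, ALB3, which inserts antenna proteins in the membrane, was lower than Col-0 (-0.23, adjusted p = 0.0107) and klu (-0.23, adjusted p = 0.00717), and LTD was lower than klu (-0.23, adjusted p = 0.0139). Of 13 regulators, 3 were higher and 2 lower (15.4%) than Col-0, and 1 was higher and 4 lower (30.8%) than klu. GLK1 was higher, at 0.23 (adjusted p = 0.0187) against Col-0 and 0.32 (adjusted p = 0.0025) against klu, and GLK2 lower, at -0.28 (adjusted p = 0.00899) and -0.27 (adjusted p = 0.00742), though both are known as activators of antenna and chlorophyll genes. HYH (0.61, adjusted p = 0.0389) and CGA1 (0.49, adjusted p = 0.0153) were higher than Col-0. SIG2, a plastid sigma factor, was lower than Col-0 (-0.24, adjusted p = 0.0301) and klu (-0.22, adjusted p = 0.0355), and SIG1 (-0.30, adjusted p = 0.0115) and GNC (-0.36, adjusted p = 0.0103) were lower than klu. Other electron transport and ATP synthase genes gave 4 of 14 lower than Col-0 (28.6%) and 6 of 14 lower than klu (42.9%). Among them was LFNR2, a ferredoxin reductase (-0.33, adjusted p = 0.0121, and -0.34, adjusted p = 0.00748). Without klu replicate 1 the counts of these genes were 7 and 3, where 12.1% and 13.3% of all genes were lower. State transition and photoprotection genes gave 1 of 6 (16.7%) and 4 of 6 (66.7%), with ABA1, the zeaxanthin epoxidase, lower in both (-0.56, adjusted p = 0.000875, and -0.52, adjusted p = 0.000702). Without klu replicate 1 the counts of this list were 3 and 2. Of 11 clock genes, 3 were higher and 1 lower (9.09%) than Col-0, and 3 higher and 2 lower (18.2%) than klu. The share lower than Col-0 was near that of all genes. The lines differed in their counts. Against Col-0, 4 were higher and 1 lower in 35S:KLU2 (5.27% of all genes lower), and 0 were called in 35S:KLU1. Against klu 6 were higher and 2 lower in 35S:KLU2 (7.11% of all genes lower), and 1 higher in 35S:KLU1. For single lines the share of all genes called higher is not given here. Between 35S:KLU2 and 35S:KLU1 0 of the 11 were called. PRR9 was at 14.5, 12.7 and 15.3 FPKM in 35S:KLU2, 20.99, 18.97 and 19.01 FPKM in 35S:KLU1, 24.2, 22.2 and 23.7 FPKM in klu plants and 18.8, 21.2 and 22.1 FPKM in Col-0. Its log2 fold change against Col-0 was -0.52 in 35S:KLU2 (adjusted p = 0.00347) and -0.07 in 35S:KLU1 (adjusted p = 0.678), and 35S:KLU1 lay within the range of Col-0. TOC1 was at 0.41 in 35S:KLU2 (adjusted p = 0.0109) and 0.15 in 35S:KLU1 (adjusted p = 0.311).

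Of 4 markers of leaf mesophyll, 3 were lower in each comparison (75%, against 8.18% and 10.7% of all genes). Without klu replicate 1, 3 of 4 were lower than Col-0 and 2 of 4 lower than klu (12.1% and 13.3% of all genes). RBCS1A, the most abundant, was called in neither reported comparison (-0.08, adjusted p = 0.638 against Col-0, and -0.13, adjusted p = 0.435 against klu). Its 35S:KLU libraries, at 19400 to 22469 FPKM, overlapped Col-0, at 20934 to 22992 FPKM. RCA, Rubisco activase, was at -0.57 against Col-0 (adjusted p = 0.00198) and -0.50 against klu (adjusted p = 0.00272). The summed level of the 4 markers ran between 23811 and 27582 FPKM in 35S:KLU, between 26304 and 33719 FPKM in klu plants and between 27479 and 29901 FPKM in Col-0, and none of them was at 0. Shoot meristem markers summed to between 8.03 and 11.4 FPKM in 35S:KLU, to 0.81, 18.02 and 21.01 FPKM in klu plants and to between 13.9 and 14.7 FPKM in Col-0, with CLV3 at 0 in every library. Of the 4 tested, 0 were called in either comparison, but without klu replicate 1, the plant at 0.81 FPKM, 4 of 4 were lower than klu, with a median of -0.67, and 2 of 4 lower than Col-0, with a median of -0.29. Of the senescence markers, SAG12 was lower and SAG13 higher than Col-0. SAG12 was listed at 0 to 0.8 FPKM in 35S:KLU, at 0 in klu and at 36.1, 47.1 and 5.11 FPKM in Col-0. It was lower than Col-0 in 35S:KLU (adjusted p = 0.000371) and also in klu (-4.47, adjusted p = 0.015). SAG13 was at 80.07, 65.5 and 87.01 FPKM in 35S:KLU2, 106.99, 66.8 and 66.6 FPKM in 35S:KLU1, 5.07, 13.8 and 20.03 FPKM in klu plants and 38.7, 27.3 and 29.1 FPKM in Col-0 (adjusted p = 0.0135 against Col-0 and 0.000151 against klu). Floral markers stayed at 1.5 FPKM or less and root markers at 1.01 FPKM or less. The part of these markers in the lower photosystem values was not tested. In bulk tissue fewer mesophyll cells and less RNA per cell cannot be told apart.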

How the data were processed

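Total RNA of individual rosettes was enriched for poly(A) RNA and sequenced as paired ends on an Illumina instrument. Per the labels and the methods of the study the authors aligned reads to TAIR10 with STAR and estimated expression with RSEM version 1.2.22. The version of STAR is not given in the sources used here. The deposited values are FPKM, which the authors normalised to transcript length and mapped fragments. The deposited table also holds the authors' own DESeq2 comparisons, as log2 fold changes with standard errors and as p-values and adjusted p-values, which were not used, and 0 columns of individual samples were left out. The members and lists were chosen with earlier results of these data known.

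FPKM were tested as log2(FPKM + 1), with a pseudocount of 1, using limma 3.58.1 (trend) in R 4.3.3, over 19660 genes with at least 0.5 FPKM in 3 libraries, in 1 fit of 4 genotype means with Benjamini-Hochberg adjustment at 0.05. Fold changes are therefore on the log2(value + 1) scale, which understates those of low genes. Windows and coding sequences came from RefSeq TAIR10.1 with Python 3.11.15 and Biopython 1.88. Named genes were the 5 most abundant members, up to 4 called per role group and direction with the largest change, any member of a role group of at most 12 measured and genes of lists of at most 14 measured. The other members and list genes named were chosen after their values were seen. Alternatives were another pseudocount, no filter, 3 scalings, fewer groups, a replicate block, library weights and each library left out. The p-values rest on the spread between plants, 3 per genotype, which was shared by the 4 genotypes and moderated across genes by limma.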

Additional observations from a re-analysis of the deposited data

How the results depend on the processing

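Against Col-0 the 16 members called lower became 7 without a filter on low values (6.16% of all genes) and 6 under median-of-ratios scaling. Under that scaling 10.4% of all genes were called lower, so that the share of members was no higher. The count was 34 with only the groups compared (12.3% of all genes). With library weights, which were chosen after seeing the data, it was 33 (13.5% of all genes). With the replicate block 8 were lower (7.28% of all genes). Leaving out 1 library gave 2 (4.66% of all genes) to 36 (12.1% of all genes). The members called higher, 0 in the reported fit, were 1 with only the groups compared, 1 with library weights and 0 to 1 with 1 library left out. Against klu the 31 called lower became 18 without a filter (8.39% of all genes) and 19 with library weights (12% of all genes). The count was 22 with the replicate block (9.84% of all genes). With 1 library left out it was 16 (13.3% of all genes) to 34 (9.39% of all genes). The 0 called higher became 1 with library weights and 0 to 1 with 1 library left out. In klu against Col-0 and in 35S:KLU2 against 35S:KLU1, 0 members were called under every alternative. No call reversed: of the 16, 2 held in all 20 alternatives, and of the 31, 13 did. The causes were not tested. Under upper-quartile scaling 45.7% of all calls against Col-0 were higher, against 58.2% in the reported fit, and 46.9% against klu, against 59.9%. No pairing of the plants by replicate number was seen: of 18 same-numbered pairs, 1 had deviations correlated above 0.1, and of 36 other pairs 3. This check cannot exclude pairing. The table holds no counts, so counting error could not be given.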
